A study of Rattus norvegicus with 24 samples.

Results

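MiR-375-3p is the mature miRNA named rno-miR-375-3p in the deposited tables, 1 of 753 miRNA names, followed here in the serum of male Wistar Kyoto rats. It was found by its name, and was chosen by values measured in these same libraries: its levels in the 4 groups and its difference between ozone and air. Its own levels and differences are therefore a description and carry no test. The rats made up 4 groups: fish oil with ozone (5 libraries), fish oil with filtered air (6), normal diet with ozone (6) and normal diet with filtered air (6). The fish oil diet held 6% fish oil by weight and the normal diet was standard chow, each fed for 8 weeks to rats that were 4 weeks old at the start, and then 0.8 ppm ozone or filtered air was breathed for 4 h on each of 2 days. All 4 groups are of 1 strain and 1 sex, and the 2 diets also differ in make and in added fat, which cannot be told apart from the oil being fish oil. The labels describe 24 samples, and replicate 2 of fish oil ozone was not analysed here.

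MiR-375 is best known from the endocrine pancreas, where it is among the most abundant miRNAs of the islets. In mouse it restrains insulin secretion, with the cytoskeletal gene Mtpn as a target, and is needed for normal numbers of alpha and beta cells. It is also expressed in pituitary and in neuroendocrine and mucosal epithelial cells of gut and airway, and it enters the blood when beta cells of the mouse are killed. In serum the cell that released it is not seen, and more releasing cells, more release per cell and slower removal from the blood cannot be told apart.

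The sequences below, from RefSeq (GRCr8), are shown because reads are assigned to a miRNA by its letters and because the seed, bases 2 to 8 in capitals, sets which targets a miRNA can pair with. The mature form is 22 bases long, with 12 G or C bases, and lies on chromosome 9 at chr9:83906591-83906612, minus strand. No other of the 693 mature names in that table has its seed.
miR-375-3p: uUUGUUCGuucggcucgcguga
In the hairpin of 75 bases (chr9:83906582-83906656, minus strand, GRCr8) the mature form, in capitals, takes bases 45 to 66.
mir-375 hairpin: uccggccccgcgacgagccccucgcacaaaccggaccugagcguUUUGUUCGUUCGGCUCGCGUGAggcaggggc
On rn5, the build of the files, miR-375-3p has 1 locus, on chromosome 9 from 81930305 to 81930327. The other arm, miR-375-5p, is listed at 81930339 to 81930362 and had 0 counts in all 23 libraries, against 1934 counts of miR-375-3p. A count of 0 allows up to 3 counts, or 0.155% of the reads of the 3p arm. In the RefSeq annotation of GRCr8 the hairpin overlaps the bounds of Cryba2, a crystallin gene of the lens, and of LOC134480387, and its next neighbour is Cfap65; whether it lies in an exon or an intron was not analysed here. The nearest other miRNA with counts is miR-26b-3p, 490409 bases away in rn5 (23 counts in all, too few to test), and the nearest that was tested is the other arm, miR-26b-5p, at 490446 bases.

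Each library held 23276 to 94264 miRNA counts, with medians of 32987 in fish oil ozone, 39568 in fish oil air, 63548 in normal ozone and 61722 in normal air, so fish oil values rest on fewer reads. In CPM, counts scaled to the same miRNA total in every library, a count of 3 was 31.8 to 129, and every value of miR-375-3p lay above this. The authors' normalized values relate the same counts to a larger read total, worked out from both tables as 2243916 to 7729946 reads per library and called the implied read total here. The median share of miRNA counts in it was 0.713% in fish oil ozone, 0.737% in fish oil air, 1.40% in normal ozone and 1.18% in normal air. The erythrocyte index, the log2 ratio of miR-451-5p to miR-23a-3p, is higher when red cells have broken. Its median was −2.52 in fish oil ozone, −1.87 in fish oil air, −2.66 in normal ozone and −2.09 in normal air, lower in ozone on both diets, with ranges that all overlapped; its part in the values below was not tested.

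MiR-375-3p was present in all 23 libraries at a middle level, with 19 to 231 counts. Its place among all names, counted from the most abundant, ran from 39 in normal ozone 1 to 94 in fish oil air 1. Its share of the miRNA counts was lowest in fish oil air 1, at 0.0499% (95% Wilson interval 0.0327 to 0.0763%), and highest in normal ozone 6, at 0.399% (0.349 to 0.456%). The intervals of these 2 libraries do not overlap, but they hold counting error alone: with no molecular identifiers, copies of 1 molecule cannot be told from separate molecules. Counting error alone was 6.58 to 22.9% of a library's value, against a spread between libraries of 32.5% in fish oil ozone, 41.3% in fish oil air, 44.6% in normal ozone and 28.6% in normal air (coefficients of variation). The spread fitted by edgeR, as a biological coefficient of variation of 0.361, was close to the median of all 136 miRNAs tested (0.347) and to that of the 20 nearest in level (0.351).

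Levels were higher in ozone than in air on both diets. In fish oil ozone, replicates 1, 3, 4, 5 and 6 had 48, 62, 97, 59 and 30 counts, which are 1477, 2038, 2183, 2295 and 911 CPM after TMM scaling (trimmed mean of M values). In fish oil air the counts ran from 19 to 100, and the CPM from 519 through a median of 1015 to 1594. Of the 5 fish oil ozone libraries 3 lay above every fish oil air library and 0 lay below every one, so the groups overlapped.

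In normal ozone the counts ran from 53 to 231, and the CPM from 1226 through a median of 2304 to 3886. In normal air the counts ran from 43 to 137, and the CPM from 976 through a median of 1103 to 1912. All 6 normal ozone libraries lay above the median of normal air and 3 lay above its highest library, replicate 3, so the groups overlapped here too. Over both diets 6 of 11 ozone libraries lay above all 12 air libraries, and 10 of 11 lay above the air median. The exception was fish oil ozone 6. These counts depended on the scale. On the miRNA total 4 of 11 lay above all air libraries and 11 above the air median. On the implied read total 1 of 11 lay above all air libraries and 10 above the air median. Within diets, 2 of 5 on fish oil and 1 of 6 on the normal diet lay above all air libraries there.

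**Figure D1:**
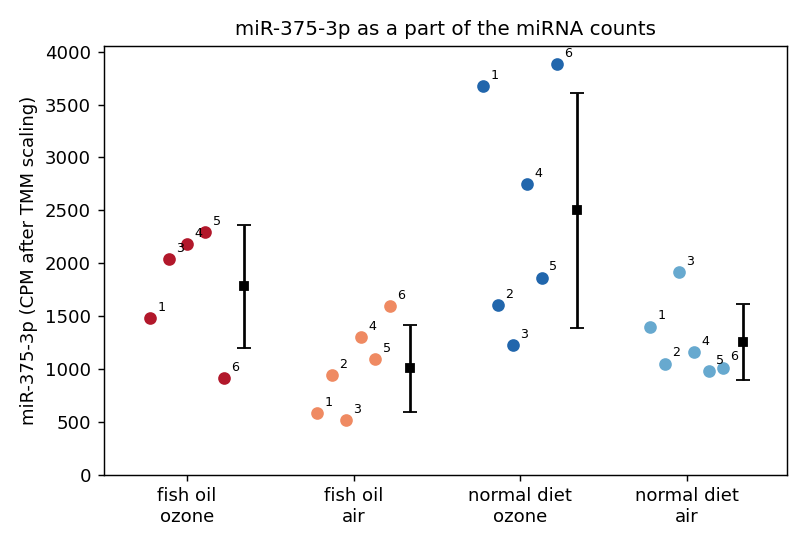
Level of miR-375-3p in each library (CPM after TMM scaling, vertical axis) by group; points are libraries with their replicate number, and squares with bars are the mean ± SD of 5 libraries in fish oil ozone and 6 in each other group. Normal ozone has the widest range, 1226 to 3886 CPM, and both ozone groups overlap their air groups.

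In order of level, normal ozone averaged 2500 ± 1114 CPM, fish oil ozone 1781 ± 579 CPM, normal air 1251 ± 358 CPM and fish oil air 1005 ± 415 CPM (SD, n = 6, 5, 6 and 6). Each pair of neighbours in this order overlapped and differed by less than the larger of their SDs. The ends of the order, normal ozone and fish oil air, differed by more than either SD. Relative to the implied read total the order was another one, with normal air (18.5 ± 16.6 RPM, the authors' deposited unit, n = 6) above fish oil ozone (15.7 ± 9.87 RPM, n = 5).

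As log2 differences fitted by edgeR over all 4 groups, miR-375-3p was +0.81 for ozone against air on fish oil (SE 0.33) and +1.0 on the normal diet (SE 0.31), a 1.75-fold and a 1.99-fold level. Averaged over diets it was +0.90 (SE 0.23), a 1.87-fold level. The median of all 136 tested miRNAs was −0.02 in that average, and the middle 90% lay between −0.41 and +0.38, and 0 of the other miRNAs had a higher difference; on the implied read total 1 did. Next below it were miR-217-5p at +0.83 (SE 0.64) and miR-429 at +0.64 (SE 0.40), which have few reads (mean counts of 14 and 7.48 per library). The edgeR quasi-likelihood test called 1 of the 136 miRNAs in that average after Benjamini-Hochberg adjustment at 0.05 (0.735%), and that 1 was miR-375-3p; since it was chosen with this known, nothing is read from the call. In the fits that left out 1 library, 1 miRNA was called without fish oil ozone 6, fish oil air 6, normal ozone 3, normal ozone 5 or normal air 3, and 0 in the other 18. Within each diet 0 of 136 were called by edgeR (0%), against 10 on fish oil and 4 on the normal diet at an unadjusted p below 0.05, and DESeq2 called 0 and 1, the 1 being miR-22-3p, which was lower in ozone (−0.79 by DESeq2).

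The ozone difference of miR-375-3p stood apart from the median of all tested miRNAs by a gap that was alike on each scale. A change of scale moves all miRNAs of a library alike, so the gap is nearly fixed in advance. Its likeness between scales therefore shows nothing about the difference itself. Averaged over diets this gap was +0.92 with TMM, +0.88 with the miRNA total and +0.90 with the implied read total, on which the median itself moved to +0.23. Leaving out 1 library at a time gave +0.80 to +0.99 for the average, +0.68 to +0.96 on fish oil and +0.82 to +1.15 on the normal diet. The low end of the average came without normal ozone 1. The difference between the ozone effects, fish oil minus normal diet, was −0.18 (SE 0.45), within its error.

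Fish oil values of miR-375-3p were lower than those of the normal diet by an amount that depended on the scale. With TMM the log2 difference was −0.49 in ozone (SE 0.32), −0.30 in air (SE 0.31) and −0.40 averaged over exposures (SE 0.23). In ozone 0 of 5 fish oil libraries lay above the normal diet median and 1 lay below all normal diet libraries. In air 2 of 6 lay above the median and 3 below all. With the miRNA total the log2 differences were −0.48 (SE 0.34), −0.14 (SE 0.33) and −0.31 (SE 0.23). On that scale 1 of 5 fish oil libraries lay above the normal diet median in ozone and 4 of 6 in air. With the implied read total the same differences were −1.34 (SE 0.56), −1.38 (SE 0.53) and −1.36 (SE 0.38), while the median of all tested miRNAs moved to −0.96, −0.78 and −0.87. Set against that median, the average was −0.46 with TMM and −0.49 with the implied read total. These 2 values are alike nearly by construction, since a change of scale moves all miRNAs of a library alike. For comparison, edgeR called 22.8% of the 136 miRNAs in ozone (12.5% higher, 10.3% lower), 5.88% in air (0.735% higher, 5.15% lower) and 36.8% averaged over exposures (19.9% higher, 16.9% lower).

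In the authors' RPM, which are relative to the implied read total, replicates 1, 3, 4, 5 and 6 of fish oil ozone had 8.80, 27.3, 24.7, 12.7 and 4.90. The lowest, median and highest values were 4.14, 5.97 and 13.6 in fish oil air, 16.6, 30.4 and 96.3 in normal ozone, and 6.92, 13.5 and 51.7 in normal air. Normal ozone 6 and normal air 3 were the highest of their groups by far, and their implied read totals, 2243916 and 2652012 reads, were among the 3 lowest of the 23.

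**Figure D2:**
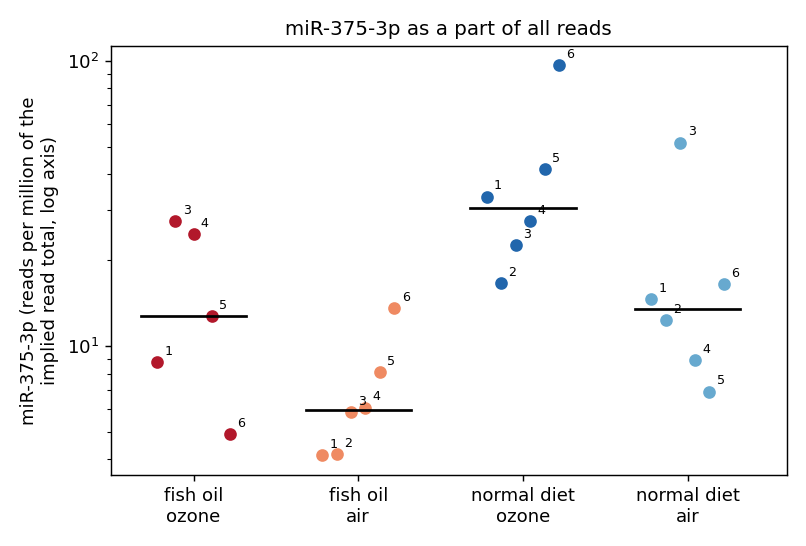
MiR-375-3p in RPM, relative to the implied read total (vertical log axis) by group; points are libraries with their replicate number and lines are group medians. The medians are 12.7 in fish oil ozone, 5.97 in fish oil air, 30.4 in normal ozone and 13.5 in normal air, with normal ozone 6 at 96.3 and normal air 3 at 51.7.

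**Figure D3:**
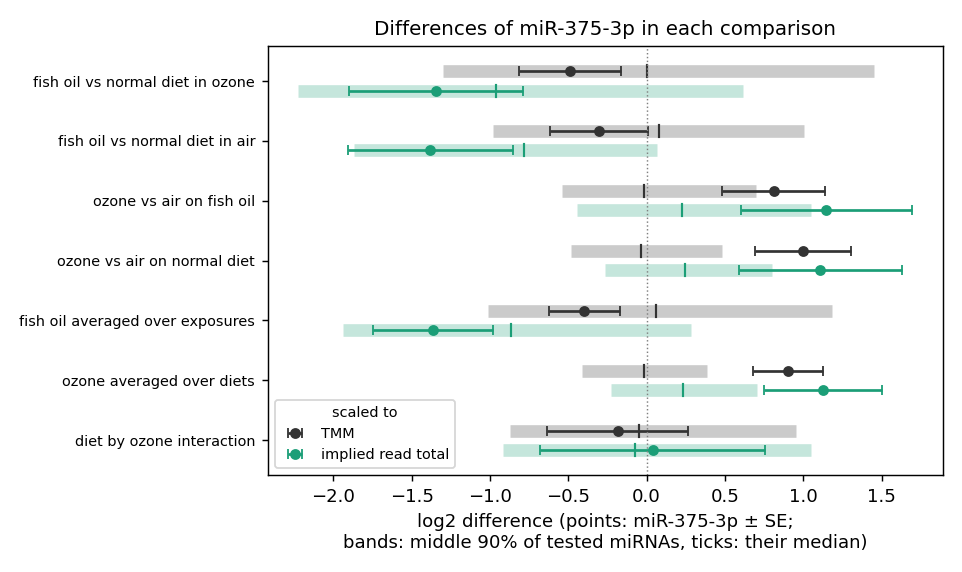
Log2 differences of miR-375-3p (points, ± SE) in 7 comparisons, scaled by TMM or to the implied read total; bands span the middle 90% of the 136 tested miRNAs and ticks mark their median. On both scales the points for ozone against air lie above the bands and those for fish oil inside them.

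Other miRNAs of islets and neuroendocrine cells gave few reads. Of the 12 on that list beside miR-375-3p, 11 were in the tables, miR-124-3p of neurons was at 0 in all libraries, and 1, miR-218a-5p, passed the filter on low counts. MiR-7a-5p, an islet and pituitary miRNA, had 1 to 14 counts per library, and miR-184, miR-9a-5p and miR-132-3p, which islets share with brain, had at most 11, 8 and 9. So 1 of the 12 could be tested, and the name neuroendocrine rests on what miR-375-3p itself is known for. Summed over the list without it, CPM of the miRNA total ran from 204 to 1684 in fish oil ozone, 357 to 859 in fish oil air, 277 to 504 in normal ozone and 242 to 805 in normal air. The ranges of ozone and air overlapped on both diets.

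MiR-218a-5p, a miRNA of motor neurons and other neural cells, rose with fish oil in ozone, where 22.8% of all tested miRNAs were called (+1.79, SE 0.59, edgeR adjusted p = 0.0261) and averaged over exposures (+1.23, SE 0.41, edgeR adjusted p = 0.0165), unlike miR-375-3p, whose values there were negative. Its means were 289 ± 281 CPM in fish oil ozone (n = 5) and 78.8 ± 32.7 CPM in normal ozone (n = 6). The libraries ran from 0 to 756 CPM in fish oil ozone and from 36.0 to 127 CPM in normal ozone, so the groups overlapped. Normal air reached at most 173 CPM, so miR-218a-5p passed the filter on low counts through fish oil libraries alone. A member that entered by being high with fish oil is no separate support for a rise there. With no filter the values were +1.72 in ozone and +1.14 averaged (edgeR adjusted p = 0.0388 and 0.0337). Both calls made with the filter ended without fish oil ozone 3 (edgeR adjusted p = 0.258 in ozone and 0.117 averaged). On the implied read total the values were +1.28 and +0.46, and with limma on RPM +0.46 and +0.18, none of them past the threshold. For ozone against air it was +0.73 on fish oil and −0.39 on the normal diet, and neither passed.

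**Figure D4:**
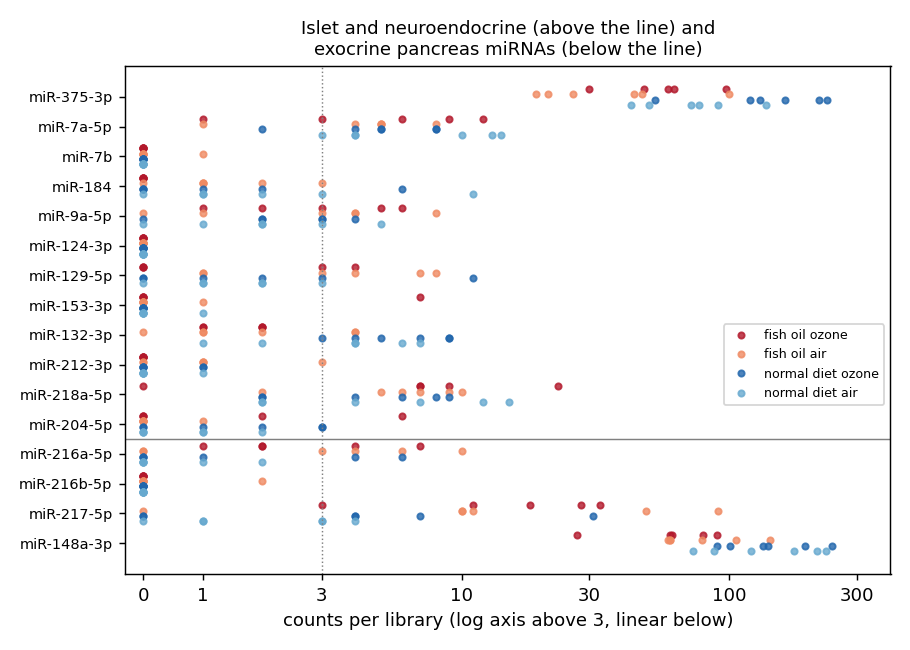
Counts per library (horizontal axis, logarithmic above 3 counts and linear below) of islet and neuroendocrine miRNAs, above the line, and exocrine pancreas miRNAs, below it; points are libraries coloured by group, and the dotted line is the floor of 3 counts. MiR-375-3p has 19 to 231 counts, and the other islet and neuroendocrine names at most 23.

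The exocrine pancreas, which surrounds the islets, was represented by miR-217-5p and miR-148a-3p. The acinar miR-217-5p is printed because it shares the organ but not the seed of miR-375-3p.
miR-217-5p: uACUGCAUcaggaacugacugg
With fish oil 1 of the 2 tested members passed in air, where 5.88% of all tested miRNAs were called. Averaged over exposures 1 of 2 passed, where 36.8% were called. MiR-217-5p was higher with fish oil in air (+4.13, SE 0.95, edgeR adjusted p = 0.0120) and averaged over exposures (+3.14, SE 0.64, edgeR adjusted p = 0.000704). Its normal diet libraries reached at most 80.7 CPM in air and, apart from normal ozone 5 (485 CPM), 126 CPM in ozone. It therefore passed the filter on low counts mainly through fish oil libraries, so these calls alone are no separate support for a rise. With no filter the values were +4.04 in air and +3.02 averaged (edgeR adjusted p = 0.0410 and 0.00560). Its counts were 0 to 91, with means of 602 ± 585 CPM in fish oil air and 35.7 ± 28.8 CPM in normal air (n = 6 each), where the mean is near the floor of 3 counts, so the size of the fitted difference rests on few reads. The libraries ran from 0 to 1450 CPM in fish oil air and from 0 to 80.7 CPM in normal air, so the groups overlapped. The calls held without any 1 library, with adjusted p up to 0.0353 in air and 0.00183 averaged in edgeR, and in 5 other settings, except in air with limma on RPM (+1.44, limma adjusted p = 0.0552). The averaged value there was +1.26. For ozone against air it was −0.16 on fish oil (SE 0.78) and +1.82 on the normal diet (SE 1.02), and neither passed. MiR-148a-3p, which liver and immune cells also express, did not pass in any of the 7 comparisons and had −0.05 for ozone averaged over diets (SE 0.17). MiR-216a-5p and miR-216b-5p had at most 10 and 2 counts and were not tested.

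Mucosal epithelium is a further known source of miR-375. Of the 9 miRNAs on that list 5 were tested, and 0 passed for ozone against air on either diet, where 0 of all 136 were called. On fish oil all 5 were positive (median +0.84, against −0.02 for all tested miRNAs). Among them were the epithelial miR-200a-3p (+0.84, SE 0.33), miR-141-3p (+0.86, SE 0.40) and miR-429 (+1.35, SE 0.61). On the normal diet 0 of 5 were positive (median −0.36, against −0.04 for all tested miRNAs), with miR-200a-3p at −0.45 (SE 0.31). MiR-375-3p was positive on both diets. In the test of the difference between the diets 0 of the 5 passed, and 0 of all 136 miRNAs were called. The lowest adjusted p of the 5 in edgeR was 0.468, of miR-200a-3p (+1.30, SE 0.46). For fish oil against the normal diet, 22.8% of all tested miRNAs were called in ozone, 5.88% in air and 36.8% averaged over exposures. With fish oil, miR-200a-3p rose in ozone (+1.11, SE 0.33, edgeR adjusted p = 0.0137) but not without fish oil ozone 3, fish oil ozone 5 or normal ozone 1 (highest edgeR adjusted p = 0.0940) and not on the implied read total (+0.26, edgeR adjusted p = 0.731) or with limma on RPM (+0.11). MiR-192-5p, of gut and liver epithelium, fell by 1.08 in air (SE 0.26, edgeR adjusted p = 0.0120) and by 0.62 averaged over exposures (SE 0.19, edgeR adjusted p = 0.0118). On the implied read total, where the median of all tested miRNAs was also lower, these were −2.03 and −1.53, and with limma on RPM −1.87 and −1.46.

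The liver list shares miR-192-5p and miR-194-5p with the mucosal one. In it the ozone comparisons had 0 of 3 past the threshold, with medians of +0.65 on fish oil and −0.69 on the normal diet, and in the erythrocyte list 0 of 4, with medians of −0.04 and −0.19. With fish oil, 2 of 3 liver members passed in air, where 5.88% of all tested miRNAs were called: miR-192-5p, given above, and the hepatocyte miR-122-5p, at −2.06 (SE 0.61, edgeR adjusted p = 0.0472). The call of miR-122-5p ended without fish oil air 2, 4, 5 or 6, normal ozone 6, or normal air 2, 5 or 6 (edgeR adjusted p up to 0.103), and with no filter on low counts (−2.10, edgeR adjusted p = 0.0778). MiR-144-5p of red cells rose with fish oil in ozone (+1.47, SE 0.41, edgeR adjusted p = 0.0108; 0.0685 without fish oil ozone 3 and 0.0624 with no low-count filter) and averaged over exposures (+1.32, SE 0.28, edgeR adjusted p = 0.000656), but on the implied read total it was +0.75 and +0.57, and with limma on RPM +0.44 and +0.34, past the threshold in none. MiR-144-3p also passed (+1.43 in ozone and +0.98 averaged, edgeR adjusted p = 0.0465 and 0.0322), and lost the call in 16 and 11 of the 23 fits without 1 library (edgeR adjusted p up to 0.391 and 0.218). On the implied read total it was +0.61 and +0.08 (edgeR adjusted p = 0.535 and 0.900), and with limma on RPM +0.20 and +0.04, past the threshold in none. The call in ozone also ended with total counts (edgeR adjusted p = 0.0867), and both ended with no filter (0.0611 in ozone and 0.0591 averaged). For these red cell miRNAs, 2 of 4 passed in ozone, against 22.8% of all tested miRNAs (12.5% higher), and 2 of 4 averaged, against 36.8% (19.9% higher). The 2 are the arms of 1 hairpin, so they are not separate members. MiR-144-5p had at most 242 CPM in normal ozone and 197 CPM in normal air, against at least 270 CPM in fish oil ozone. It therefore passed the filter on low counts mainly through fish oil libraries, so its calls alone are no separate support for a rise. With no filter its averaged value was +1.24 (edgeR adjusted p = 0.00456), and its call in ozone ended, as given above. MiR-451-5p (+0.55 in ozone and +0.58 averaged) and miR-16-5p (+0.05 and +0.06) did not pass. MiR-26b-5p, the nearest tested miRNA on chromosome 9, had +0.22 for ozone averaged over diets (SE 0.16, edgeR adjusted p = 0.794).

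Across the 23 libraries the likeness of other miRNAs to miR-375-3p was at most moderate. By Spearman's rho of log2 CPM the 5 most alike were miR-26a-5p (0.59), let-7f-5p (0.50), miR-30e-3p (0.49), miR-126a-5p (0.48) and miR-30a-3p (0.47), against a median of 0.02 and a 95th percentile of 0.45 over the 135 others. The least alike were miR-301a-3p (−0.56) and the pair miR-210-3p and miR-3574 (−0.51), which have identical counts and are 1 signal. These values share their libraries, depth and a common total, so they are a description. Without the 2 libraries farthest in miR-375-3p, normal ozone 6 and 1, the 5 had 0.55, 0.45, 0.33, 0.48 and 0.47. The sequences of the most alike that RefSeq lists are printed with their seeds in capitals. None can have the seed of miR-375-3p, which no other mature name listed there has, so this shows nothing about the likeness.
miR-26a-5p: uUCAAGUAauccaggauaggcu
let-7f-5p: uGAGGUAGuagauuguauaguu
miR-126a-5p: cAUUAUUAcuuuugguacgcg
miR-30a-3p: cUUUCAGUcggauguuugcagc

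With the mean of each group taken out, so that only differences among rats of 1 group count, the order changed. MiR-126a-5p, an endothelial miRNA, was then the most alike (0.63), followed by miR-23b-3p (0.59), let-7f-5p (0.57), miR-3596a (0.52, which shares reads with let-7a-5p) and miR-155-5p of activated leukocytes (0.51). MiR-26a-5p, miR-30e-3p and miR-30a-3p dropped to 0.40, 0.09 and 0.14, and 2 of the 5, let-7f-5p and miR-126a-5p, were in both sets. MiR-27a-5p (−0.62), miR-301a-3p (−0.60) and miR-17-5p (−0.55) were then least alike. With the implied read total as scale the median rho of all 135 was 0.59, with a 5th percentile of 0.27. None of miR-26a-5p, let-7f-5p and miR-126a-5p passed for ozone averaged over diets (+0.22, +0.23 and +0.51 in edgeR, adjusted p = 0.794 for each). Only 1 of all 136 was called there. For fish oil averaged over exposures, where 36.8% were called, they had −0.37, +0.19 and +0.64 (edgeR adjusted p = 0.0270, 0.419 and 0.0150).

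**Figure D5:**
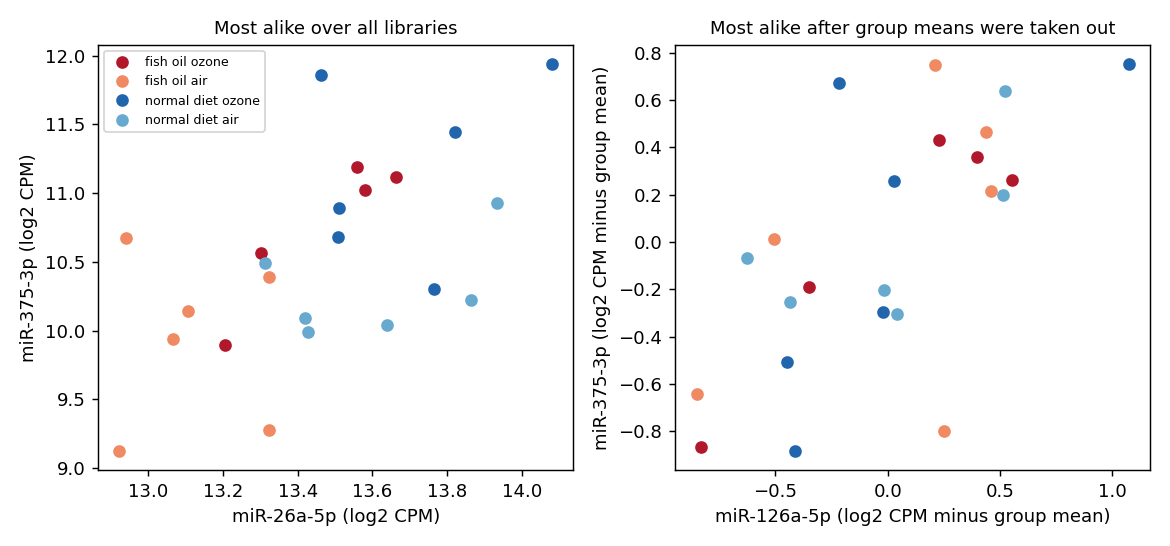
MiR-375-3p against the miRNA most alike, in log2 CPM, with 1 point per library coloured by group: miR-26a-5p over all 23 libraries (left, rho 0.59), and miR-126a-5p after group means were taken out (right, rho 0.63). In both panels the points scatter widely around the trend.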

How the data were processed

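Per the labels' protocols, RNA was taken from 100 µl of serum, 10 ng entered a small RNA library kit, and libraries were read for 50 cycles from 1 end. Tools named in the submitters' processing notes are bcl2fastq, Bowtie 1.0.0 and Partek, with build rn5; no annotation or filter is stated. The authors deposited expected counts per miRNA locus (832 loci, fractions in 50 of them, 0 in that of miR-375-3p) and RPM values. The deposited RPM equal the counts divided by an unstated read total plus 0.0001, to within 0.0276 reads.

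Columns were joined to groups through the animal number in the sample title. Loci of 1 name were summed and rounded. Of 753 names, 136 passed filterByExpr (minimum count 10, minimum total 15), holding 99.3% of the counts. The quasi-likelihood test of edgeR 4.0.16 in R 4.3.3 (robust, two-sided, 1 mean per group) was run on TMM-scaled counts, with Benjamini-Hochberg adjustment over 136 miRNAs in each of 7 contrasts at 0.05; the SE is the difference divided by the square root of F. The edgeR fit was tested on simulated counts with known changes between the diets, read in the comparison averaged over exposures. No change between ozone and air was simulated and the lowest levels were raised, so the ozone comparisons and the rarest miRNAs were not covered. Nothing above rests on that run. Alternatives used DESeq2 1.42.0, limma 3.58.1 on log2(RPM + 1 or 10), other scales, no filter, and each library left out. Likeness used log2 CPM with a prior count of 2.

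The members, lists and tests were chosen with earlier results of these data known. Named are miR-375, list members that passed, all tested islet and exocrine members, the 5 most and 3 least alike miRNAs over all libraries and again with group means taken out; miR-26b-5p, miR-22-3p and the next highest ozone differences were added after their values were seen. Labels list the libraries as separate samples, and which rats shared a cage (2 to each, per the labels' protocols) was not used; p-values measure the spread between these libraries. Animal numbers run in blocks by group, so a batch that followed them cannot be told apart from the groups.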

Additional observations from a re-analysis of the deposited data

Results flagged for a closer look

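A sample that stood apart from its group was looked for in 40 sets of 5 or 6 libraries, of which chance alone would mark about 1 in 20, and 4 were marked. Normal air 3 had 2205 CPM of miR-375-3p on the scale of the miRNA total, against 816 to 1263 in the other 5 normal air libraries. On the implied read total it had 51.7 RPM, against 6.92 to 16.4. Normal ozone 6 had 96.3 RPM of miR-375-3p, against 16.6 to 41.7 in the other 5 normal ozone libraries. After TMM scaling neither library was marked. Normal ozone 5 had 485 CPM of miR-217-5p, against 0 to 126 in the other 5. Without normal air 3 the log2 difference of miR-375-3p for ozone averaged over diets was +0.98.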

How the results depend on the processing

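In the 7 comparisons miR-375-3p kept its direction under every alternative run, except that the difference between the ozone effects turned to +0.04 with the implied read total and +0.0043 without fish oil ozone 6, within its error both times. Its fish oil difference became −1.34 in ozone, −1.38 in air and −1.36 averaged with the implied read total, and −1.28, −1.08 and −1.18 with limma on RPM at pseudocount 1 (both use the larger read total, on which the median of all miRNAs also moved). Group mean levels moved by less than 1 SD.

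Counts of called miRNAs moved more. For fish oil in ozone 31 became 48 with limma on RPM, and 12 to 34 with 1 library left out (12 without fish oil ozone 3). For fish oil in air 8 became 15 with DESeq2, 14 with total counts, 38 with the implied read total and 32 with limma, and 3 to 15 with 1 library left out (3 without fish oil air 4 or 5, 4 without fish oil air 6 or normal air 5, 5 without normal air 6, 15 without fish oil air 3). For ozone averaged over diets 1 became 0 with total counts, the implied read total or limma, and 0 to 1 with 1 library left out. For ozone on the normal diet 0 became 1 with DESeq2, and 0 to 1 with 1 library left out (1 without normal air 3, miR-22-3p both times). No paired analysis was possible because animal numbers pair no rats across groups. Fewer counts in fish oil libraries limit precision there.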
